A study of Mus musculus with 4 samples.

Results

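The genes examined were 10 genes of integrin adhesion: the integrin subunits Itgav, Itgb1, Itgal and Itgb2, the GTPase Rap1b, the adaptors Tln1, Vcl and Pxn, and the kinases Ptk2 and Ptk2b. They were taken from a fixed list, of which Ptk2, Itgav and Rap1b are also named in the study, and they are 10 of 21951 protein-coding genes. Peaks of the transcription factor MIZ-1 were collected wherever they touched the promoter or the body of 1 of these genes. This gave 12 of 34209 peaks in the MIZ-1WT list and 18 of 78357 in the MIZ-1DPOZ list. A promoter was the window from 2000 bp before to 1000 bp after any annotated transcript start.

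ChIP-seq, in which DNA held by a protein is pulled down with an antibody and sequenced, was performed with the MIZ-1 antibody H-190 on B220+ cells of the mouse spleen. MIZ-1WT cells carried the wild-type protein. MIZ-1DPOZ cells came from mice in which a floxed POZ domain of Miz-1 was removed by MB1-Cre, a Cre recombinase driven in B cells, and both genotypes were on a C57BL/6 background. Each genotype had 1 ChIP library and 1 input library, so no difference between the lists could be set against variation between mice. The study's methods give an age range for its mice in general, and the labels give no age, sex or number of mice for a library. The peak lists carry no value that would check the cell type or the deletion.

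Integrins are receptors made of an alpha and a beta chain that bind the extracellular matrix or ligands on other cells. Active Rap1 brings talin to the tail of the beta chain, and talin, vinculin and paxillin then tie the receptor to actin. The kinases FAK, made by Ptk2, and PYK2, made by Ptk2b, signal from these sites, and in B cells the same machinery serves adhesion in the spleen and spreading on antigen-bearing surfaces. MIZ-1 is a zinc finger protein whose POZ domain lets it associate with itself. The truncated protein keeps its zinc fingers, which contact DNA.

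The reference sequences below show start regions and summits of 5 of the genes, and all are from the mm10 assembly, written along the gene from 5′ to 3′. RefSeq promoters of this set were found for 5 of the 10 genes, Itgav, Itgb1, Rap1b, Vcl and Tln1. The first set shows bases at and before the starts of 4 genes, with capitals where a searched motif matched on either strand. These were CCAAT (the NF-Y box), GGGCGG (the core of SP1 family sites) and TGACGTCA (the full CREB and ATF site). The Itgav (chr2:83724147-83724396) and Itgb1 (chr8:128685404-128685653) stretches end at the start of the gene. The Itgav peaks lay downstream of it, and at Itgb1 the MIZ-1DPOZ peak began within the printed bases while the summits lay downstream. The Rap1b stretch (chr10:117846006-117846224, minus strand) holds the MIZ-1DPOZ summit at base 36. Its last 30 bases, with TGACGTCA, lie downstream of the GENCODE start in the 5′ untranslated region. The Vcl stretch (chr14:20929148-20929397) holds the MIZ-1WT summit at base 48.
Itgav: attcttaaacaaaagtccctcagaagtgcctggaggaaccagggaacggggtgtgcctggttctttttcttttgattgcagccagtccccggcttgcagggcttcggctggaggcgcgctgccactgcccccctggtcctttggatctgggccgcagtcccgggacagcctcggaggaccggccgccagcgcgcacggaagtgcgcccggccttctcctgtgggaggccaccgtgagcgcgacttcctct
Itgb1: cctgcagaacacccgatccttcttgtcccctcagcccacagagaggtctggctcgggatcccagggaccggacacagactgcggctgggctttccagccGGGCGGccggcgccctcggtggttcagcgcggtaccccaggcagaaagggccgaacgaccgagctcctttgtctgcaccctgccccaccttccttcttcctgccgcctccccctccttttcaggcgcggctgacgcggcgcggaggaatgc
Rap1b: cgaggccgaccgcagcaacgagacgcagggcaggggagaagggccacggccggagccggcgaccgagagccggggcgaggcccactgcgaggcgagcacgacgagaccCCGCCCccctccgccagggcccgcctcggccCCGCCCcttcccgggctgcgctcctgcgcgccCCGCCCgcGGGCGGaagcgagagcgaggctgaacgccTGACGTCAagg
Vcl: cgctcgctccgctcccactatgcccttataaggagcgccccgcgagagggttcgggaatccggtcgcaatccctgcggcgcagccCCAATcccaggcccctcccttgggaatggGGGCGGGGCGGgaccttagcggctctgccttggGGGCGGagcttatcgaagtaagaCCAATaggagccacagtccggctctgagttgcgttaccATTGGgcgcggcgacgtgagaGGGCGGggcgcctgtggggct

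The second set shows bases at summits, the positions of highest signal in a peak. At Itgav (chr2:83724575-83724604) and Itgb1 (chr8:128685834-128685863), where peaks of both lists overlapped, the capitals mark the summit base of each list. At Tln1 (chr4:43562192-43562221, minus strand) and Rap1b (chr10:117845971-117846000, minus strand) the capital marks the MIZ-1WT summit. These 4 sites lay in 5′ untranslated regions. The Vcl stretch (chr14:20929595-20929715) is centred on the MIZ-1DPOZ summit in the first coding exon and holds none of the motifs searched.
Itgav site: ccggCtcagcttcgcgccgcccggCcgccc
Itgb1 site: gcccgccgacGccggcccgAgaccctccga
Tln1 site: gtcgaagggagggcgAggccggagccccaa
Rap1b site: ccgccaaacctcgccCagagtcaggcgtgg
Vcl MIZ-1DPOZ summit: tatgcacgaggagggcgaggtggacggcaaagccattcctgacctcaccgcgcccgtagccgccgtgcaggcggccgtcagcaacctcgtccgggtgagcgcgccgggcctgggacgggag

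The lists differed in length and the libraries in depth. From the peak scores, the MIZ-1DPOZ ChIP library was 1.34 times deeper than the MIZ-1WT library. The median MIZ-1WT peak rested on 9 fragments, with quartiles of 8 and 11, and the median MIZ-1DPOZ peak on 12, with quartiles of 10 and 16. At the most frequent local background, the smallest summits called had 5 and 6 fragments, respectively. A gene without a peak was therefore not called at this depth, which does not show that MIZ-1 was absent. Intervals of ratios given here cover counting error in these libraries alone, and intervals of shares treat the peaks as independent draws.

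Promoters of 7 of the 10 genes carried a MIZ-1WT peak: Itgav, Itgb1, Rap1b, Tln1, Vcl, Pxn and Ptk2. Over all protein-coding genes the share was 30.9%, and over all 55450 annotated genes it was 16.9%. In the MIZ-1DPOZ list, promoters of 6 of the 10 genes carried a peak, the same set without Tln1, against 48.7% of protein-coding genes and 28.9% of all genes. Itgal, Itgb2 and Ptk2b had a promoter peak in neither list. Of protein-coding genes, 26.6% were called at the promoter in both lists, 4.23% in MIZ-1WT alone, 22.0% in MIZ-1DPOZ alone and 47.1% in neither. The 10 genes were not drawn at random, so their counts describe these genes and were not tested against those shares.

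Peaks of the lists overlapped at the promoters of 3 genes, Itgav, Itgb1 and Pxn. Overlapping promoter peaks were found at 23.6% of protein-coding genes. At Rap1b, Vcl and Ptk2 each list had a promoter peak, but these did not share a base. Of the 5848 protein-coding genes with a promoter peak in each list, 675 (11.5%) had no overlapping pair. Counted as peaks, 3 of the 10 MIZ-1WT promoter peaks and 3 of the 7 MIZ-1DPOZ promoter peaks overlapped the other list, against 71.5% and 36.9% of all promoter peaks. With gene body peaks included, 3 of 12 MIZ-1WT peaks (Wilson 95% interval 8.89% to 53.2%) and 3 of 18 MIZ-1DPOZ peaks (16.7%, interval 5.84% to 39.2%) overlapped. The shares over all peaks were 53.7% and 22.1%. Of the 12 MIZ-1WT peaks 10 were promoter peaks, against 8960 of 34209 in the whole list, so the sets differ in kind. The 10 genes were chosen, so the intervals are not a test against those shares.

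**Figure D1:**
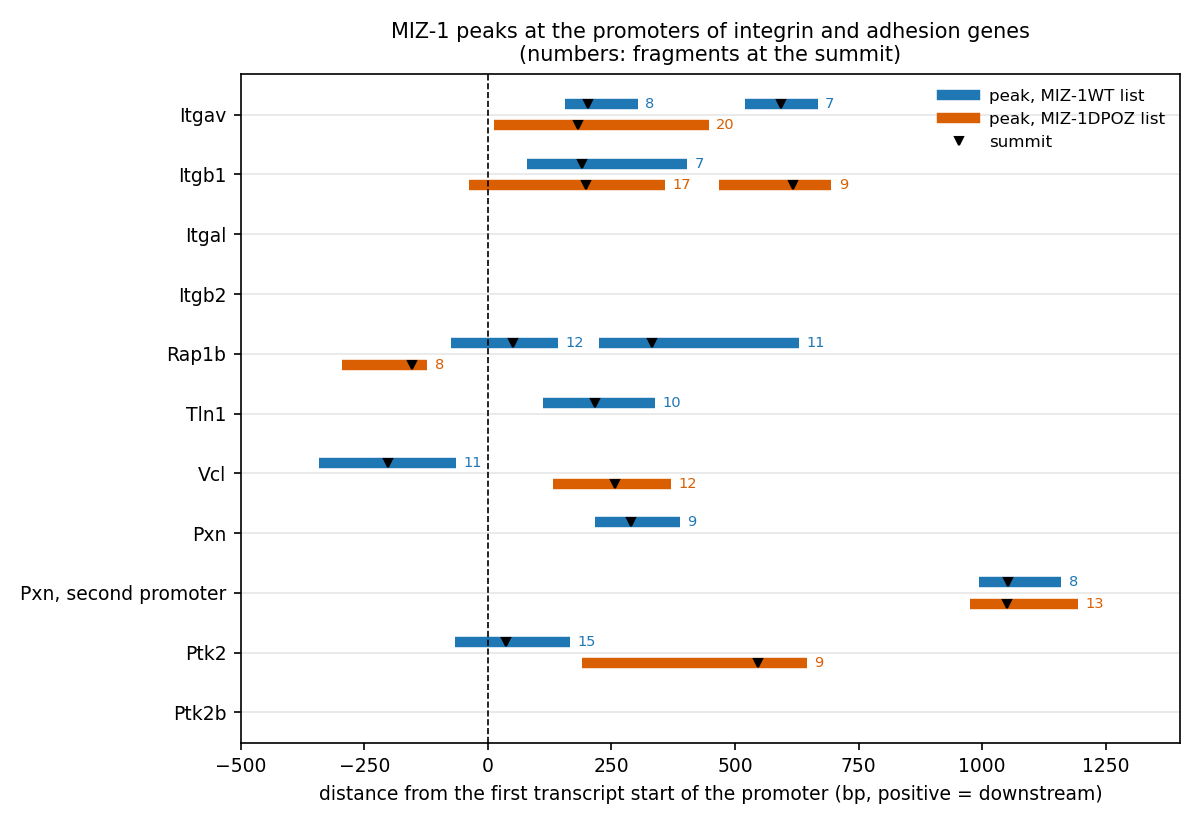
Peaks at the promoters of the 10 genes by distance in bp from the first transcript start, with MIZ-1WT peaks in blue, MIZ-1DPOZ peaks in orange, black triangles at the summits and the number of fragments at the summit beside each peak. Peaks of the lists lie over each other at Itgav, Itgb1 and the second promoter of Pxn, and beside each other at Rap1b, Vcl and Ptk2.

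Itgav encodes the alpha chain of the vitronectin receptors and lies at chr2:83724397-83806916 on the plus strand (ENSMUSG00000027087). Its MIZ-1DPOZ peak (chr2:83724410-83724844) had 20 fragments at the summit, 8.44-fold over the local background, with a −log10 q of 13.6. Its MIZ-1WT peak at chr2:83724553-83724700 lay wholly inside that peak and had 8 fragments, 4.59-fold over background, with a −log10 q of 3.04. The summits, 182 and 202 bp downstream of the first start, lay 20 bp apart in the 5′ untranslated region, at the bases capitalised in the site above. After scaling for depth the MIZ-1DPOZ summit was 1.86 times the MIZ-1WT summit, with an exact 95% interval of 0.787 to 4.89. That interval includes 1, so the difference was not detectable at this depth. A second MIZ-1WT peak, in the first intron 593 bp from the start, had 7 fragments and lay 72 bp from the MIZ-1DPOZ peak.

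Itgb1, at chr8:128685654-128733200 on the plus strand (ENSMUSG00000025809), encodes the beta 1 chain that pairs with many alpha chains. The lists called nearly the same stretch, 325 bp in MIZ-1WT (chr8:128685733-128686057) and 398 bp in MIZ-1DPOZ (chr8:128685615-128686012), of which 280 bp were shared. The MIZ-1WT summit had 7 fragments (4.17-fold) and the MIZ-1DPOZ summit had 17 (6.99-fold), 9 bp apart in the 5′ untranslated region. The depth-scaled ratio was 1.81 (exact 95% interval 0.714 to 5.17), which again includes 1. A further MIZ-1DPOZ peak in the first intron, 617 bp from the start, had 9 fragments and no MIZ-1WT counterpart in the list, its gap to the nearest MIZ-1WT peak being 63 bp.

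Itgal and Itgb2, which encode the alpha and beta chains of LFA-1, the main integrin of lymphocytes, had no promoter peak in either list. Both are poor in CpG at the first start, with 6 CpG in 300 bases. At Itgal (chr7:127296260-127335138, plus strand, ENSMUSG00000030830) the nearest MIZ-1WT summit lay 22.6 kb before the first start. Its gene body held 3 MIZ-1DPOZ peaks of 11, 9 and 8 fragments, the highest in a coding exon 26.3 kb from the start (chr7:127322490-127322664). At Itgb2 (chr10:77530252-77565708, plus strand, ENSMUSG00000000290) a MIZ-1DPOZ peak of 11 fragments lay in an intron 3.01 kb from the start, outside the promoter window. The nearest MIZ-1WT summit to Itgb2 was 75.9 kb downstream.

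Rap1b, the Rap1 isoform that acts on integrins in platelets and lymphocytes, lies at chr10:117813871-117846035 on the minus strand (ENSMUSG00000052681). The MIZ-1WT list held a peak over the start (chr10:117845893-117846110) with 12 fragments, 6.43-fold over background, and its summit was 50 bp downstream of the start in the 5′ untranslated region. It held a second peak in the first intron with 11 fragments and a summit 331 bp from the start, at chr10:117845406-117845811. The MIZ-1DPOZ list had 1 peak of 8 fragments (3.83-fold) with its summit 154 bp before the start, at chr10:117846158-117846330. The MIZ-1DPOZ peak ended 47 bp from the nearer MIZ-1WT peak and the summits lay 204 bp apart. The MIZ-1WT peaks therefore covered the start and the first intron, and the MIZ-1DPOZ peak the bases before the start. Scaled to the depth of the other library, the MIZ-1WT summits of 12 and 11 fragments would equal 16.1 and 14.8.

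Tln1 encodes talin, which switches integrins on by binding the beta chain, and lies at chr4:43531519-43562691 on the minus strand (ENSMUSG00000028465). It was the 1 gene with a MIZ-1WT promoter peak and no MIZ-1DPOZ promoter peak. The MIZ-1WT peak (chr4:43562084-43562311) had its summit in the 5′ untranslated region, 216 bp downstream of the transcript start used (chr4:43562422, inside the gene span). It had 10 fragments, 5.91-fold over background. This equals 13.4 fragments at the depth of the MIZ-1DPOZ library, where the smallest summits called had 6. Any called MIZ-1WT summit exceeds that number after scaling, so the comparison says nothing about the missing MIZ-1DPOZ peak. The nearest MIZ-1DPOZ peak was 8281 bp away. The summit lay closer to the start of the neighbouring gene Creb3, 126 bp before it, so the peak cannot be given to Tln1 alone. In the gene body, MIZ-1WT peaks of 8 and 7 fragments and MIZ-1DPOZ peaks of 11 and 10 fragments lay past the middle of the gene, and none of the MIZ-1WT ones overlapped a MIZ-1DPOZ one.

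Vcl encodes vinculin, which strengthens the link from talin to actin, and lies at chr14:20929398-21033676 on the plus strand (ENSMUSG00000021823). The MIZ-1WT peak (chr14:20929057-20929333) lay upstream of the start, with its summit at 203 bp before it, 11 fragments and 6.45-fold enrichment. The MIZ-1DPOZ peak (chr14:20929529-20929769) lay downstream, with its summit at 257 bp in the first coding exon, 12 fragments and 5.54-fold enrichment. The peaks were 195 bp apart and their summits 460 bp apart, so the promoter was marked in both lists at different places. Within 60 bp of the summit, the MIZ-1WT peak had 1 CCAAT match and no GGGCGG match, and the MIZ-1DPOZ peak had neither. Within 100 bp, the MIZ-1WT peak had both motifs and the MIZ-1DPOZ peak had GGGCGG. Within the gene, a MIZ-1DPOZ peak of 16 fragments (7.24-fold) lay 25.1 kb from the start in an intron, and 87.6% of the bases within 100 bp of its summit were repeat-masked.

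Pxn, which encodes the adaptor paxillin, lies at chr5:115506676-115555987 on the plus strand (ENSMUSG00000029528) and has a second promoter 37.4 kb downstream of the first. At the first promoter the MIZ-1WT list had a peak of 9 fragments (5.30-fold), 289 bp from the start (chr5:115506892-115507064), and the MIZ-1DPOZ list had none. At the second promoter both lists had a peak, of 8 fragments in MIZ-1WT (chr5:115545079-115545245) and 13 in MIZ-1DPOZ (chr5:115545061-115545280). These summits were 1 bp apart, and their depth-scaled ratio was 1.21 (exact 95% interval 0.466 to 3.37). They lay 1052 and 1051 bp from the second start, so only the edges of the peaks reached the promoter window, and by its summits Pxn is not a gene with overlapping promoter peaks. The CpG ratio, observed over expected, was 0.20 at these summits, the lowest of all promoter peaks of the 10 genes.

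Ptk2, which encodes FAK, is the longest of the 10 genes at 218 kb (chr15:73205102-73423280, minus strand, ENSMUSG00000022607). Its MIZ-1WT promoter peak (chr15:73423045-73423278) was the highest MIZ-1WT peak of the 10 genes, with 15 fragments, 8.15-fold enrichment and a −log10 q of 9.79. Its summit lay in the 5′ untranslated region, 37 bp from the first start used (chr15:73423212, inside the gene span). The window of the annotated gene Gm49066 also took in this peak. The MIZ-1DPOZ promoter peak (chr15:73422567-73423022) was wide and low, with 456 bp, 9 fragments and 4.26-fold enrichment, and its summit lay in the first intron, 546 bp from the start. The peaks were 22 bp apart and the summits 509 bp apart. At the depth of the MIZ-1DPOZ library, the MIZ-1WT summit would equal 20.1 fragments. The gene body held 2 MIZ-1DPOZ peaks and no MIZ-1WT peak outside the promoter.

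Ptk2b, which encodes PYK2, the relative of FAK that prevails in blood cells, lies at chr14:66153257-66281052 on the minus strand (ENSMUSG00000059456). It had no peak of either list at its 2 promoters or anywhere in the gene. The nearest summits lay upstream, at 80.1 kb in the MIZ-1WT list and 16.4 kb in the MIZ-1DPOZ list. The calls at the 2 related kinases thus differed: Ptk2 had a promoter peak in each list and Ptk2b in neither. Both outcomes were common, with 26.6% of protein-coding genes called in both lists and 47.1% in neither.

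**Figure D2:**
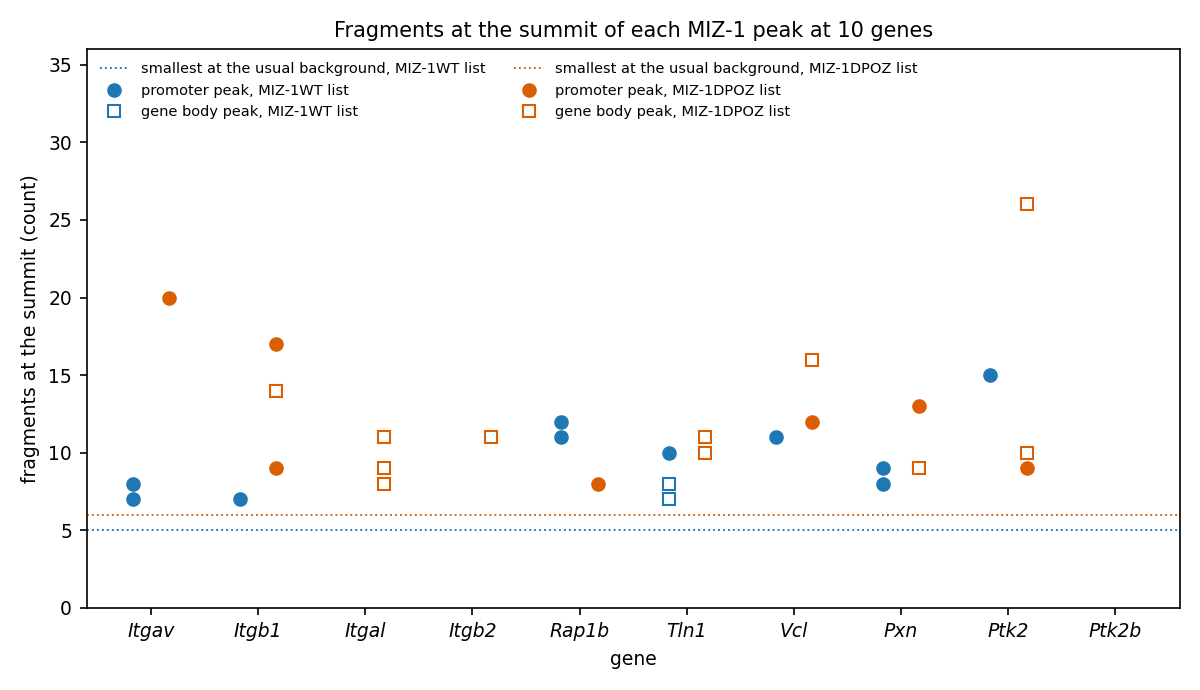
Fragments at the summit of each peak at the 10 genes, with MIZ-1WT in blue and MIZ-1DPOZ in orange, filled circles for promoter peaks, open squares for gene body peaks and dotted lines at the smallest summits called at the most frequent background (5 and 6 fragments). Promoter summits range from 7 to 15 fragments in the MIZ-1WT list and from 8 to 20 in the MIZ-1DPOZ list, without scaling for depth.

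The 3 overlapping pairs were set beside all 6397 pairs of overlapping promoter peaks. Over those pairs the median depth-scaled ratio, MIZ-1DPOZ over MIZ-1WT, was 1.08, with quartiles of 0.864 and 1.39. A ratio at or above that of Itgav was found in 7.46% of the pairs, at or above that of Itgb1 in 8.19% and at or above that of Pxn in 39.0%. The summits of these pairs lay 20, 9 and 1 bp apart, while the median distance over all pairs was 84 bp (quartiles 35 and 167). The ratios compare 2 libraries and not the genotypes.

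The promoter peaks that overlapped no peak of the other list were set beside the smallest summits called in that list. The 7 such MIZ-1WT promoter peaks ranged from 9.39 to 20.1 fragments when scaled to the MIZ-1DPOZ depth, where the smallest summits called had 6. Even the smallest MIZ-1WT summits, of 5 fragments, exceed 6 when scaled by 1.34. This comparison was therefore fixed in advance for MIZ-1WT peaks and says nothing about the missing overlap. The 4 such MIZ-1DPOZ promoter peaks ranged from 5.97 to 8.95 fragments when scaled to the MIZ-1WT depth, where the smallest had 5. Unscaled they had 8 to 12 fragments, and the lower quartile of their list was 10. The smallest summits are those at the most frequent background, which the local background exceeded at some of these genes. Whether depth or the calling cutoff had a part in the missing overlap was not tested. The signal of the other library at these places was not examined, since the reads were not used.

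Promoter peaks of the 10 genes lay in sequence rich in G and C. Within 100 bp of a summit the median GC content was 76.9% in the 10 MIZ-1WT peaks (range 64.2 to 86.6) and 72.1% in the 7 MIZ-1DPOZ peaks (63.7 to 78.1). All promoter peaks of each list had medians of 72.6% and 69.2%. The 50 bases around each of these 17 summits occurred once in the genome, and no summit window was over 50% repeat-masked. The SP1 core was found on either strand around 7 of the 10 MIZ-1WT summits and 5 of the 7 MIZ-1DPOZ summits, against 59.8% and 49.2% of all promoter peaks. It was present in 35.7% of 32851 RefSeq promoters of 300 bases.

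The NF-Y box was found at the MIZ-1WT peak of Vcl and at no other promoter peak of the 10 genes, against 11.1% of all MIZ-1WT and 12.2% of all MIZ-1DPOZ promoter peaks and 37.4% of RefSeq promoters. The CREB and ATF site lay in the MIZ-1WT peak over the Rap1b start, in the 5′ untranslated end of the stretch printed above. It occurred at 0.558% of all MIZ-1WT promoter peaks, 0.544% of MIZ-1DPOZ promoter peaks and 1.79% of RefSeq promoters. CACGTG, the E-box of MYC and MAX, was at none of the 17 summits, against 4.26% and 3.71% of all promoter peaks and 7.15% of RefSeq promoters. CCGGAAG, an ETS site, was also at none of them, against 5.35%, 4.52% and 8.86%. Peak shares of every motif, the SP1 core included, are of 201 bp centred on summits. RefSeq shares are of 300 bases that lie mostly before the start. The 2 kinds of share differ in length and placement, so a gap between them is not a gain or loss at peaks. Both strands were searched, a match describes the letters alone, and the MIZ-1 consensus itself was not searched here.

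CpG number at the first start separated the genes with a promoter peak from those without. It was not counted at the second promoters of Pxn, Itgal and Ptk2b. The only MIZ-1DPOZ promoter peak of Pxn was at its second promoter, with 4 CpG within 100 bp of the summit. In the 300 bases from 250 before to 50 after the first start, Rap1b had 42 CpG, Ptk2 41, Vcl 30, Pxn 30, Itgb1 27, Itgav 24 and Tln1 18, while Itgal, Itgb2 and Ptk2b had 6 each. Over protein-coding genes divided into quintiles by this number, MIZ-1WT promoter peaks rose from 5.60% of genes in the lowest quintile to 65.7% in the highest, and MIZ-1DPOZ promoter peaks from 13.1% to 83.3%. The 5 genes with the most CpG were in the highest quintile, where 53.2% of genes had overlapping peaks. Itgav and Tln1 were in the fourth quintile, where 40.6% of genes had a MIZ-1WT peak and 64.6% a MIZ-1DPOZ peak. The 3 genes without promoter peaks were in the second quintile, with shares of 13.9% and 30.7%. Whether CpG content, or reads gained from such sequence in any library, had a part in which genes were called was not tested.

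**Figure D3:**
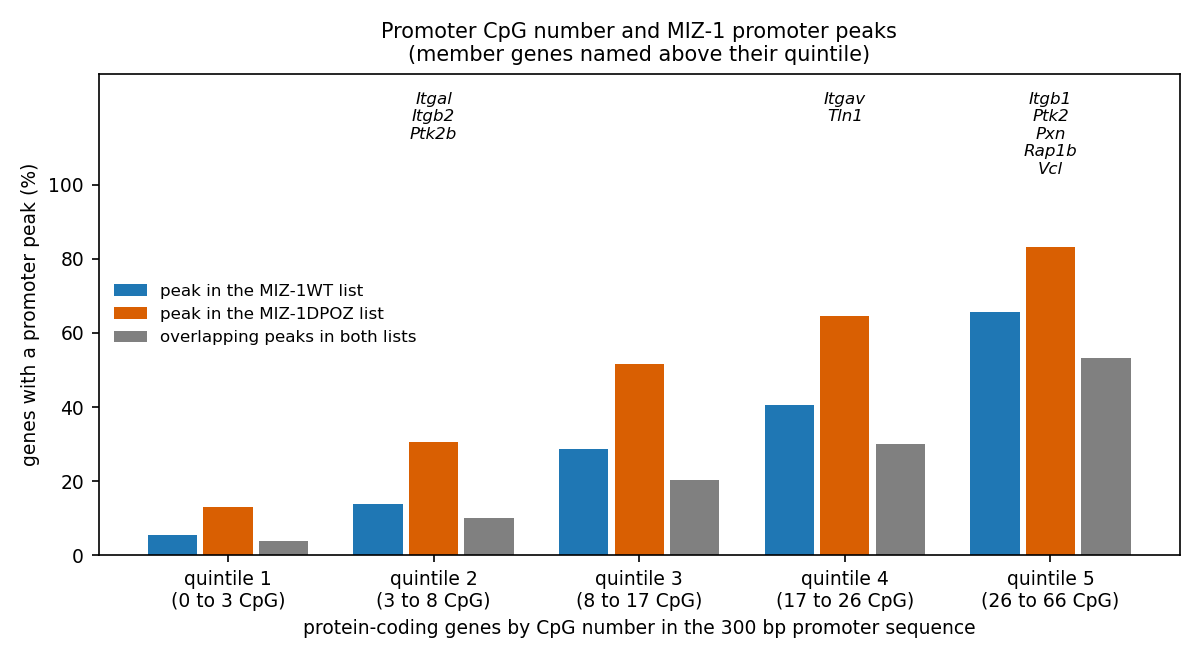
Share of protein-coding genes with a promoter peak, in percent, by quintiles of the CpG number in the 300 bp promoter sequence, for the MIZ-1WT list (blue), the MIZ-1DPOZ list (orange) and overlapping peaks of both (grey). The names of the 10 genes stand above their quintile, and the 7 genes with a MIZ-1WT promoter peak are all in the highest 2 quintiles.

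Gene body peaks, those outside the promoter window, numbered 2 in the MIZ-1WT list, both at Tln1, and 11 in the MIZ-1DPOZ list, at Itgb1, Itgal, Itgb2, Tln1, Vcl, Pxn and Ptk2. Over the length of the 10 genes, promoter parts included, there were 1.43 MIZ-1WT and 2.22 MIZ-1DPOZ peaks per 100 kb. Over all protein-coding genes there were 1.61 and 3.60. The highest gene body peak lay in an intron of Ptk2, 45.3 kb from the start (chr15:73377823-73378064), with 26 MIZ-1DPOZ fragments and 8.63-fold enrichment. Its summit window was 97.0% repeat-masked, and the 50 bases at its summit occurred 70 times in the genome. The other Ptk2 intron peak, 205 kb from the start, was fully masked and its 50 bases occurred 241 times, so reads at both could come from other copies. In all, 4 of the 11 MIZ-1DPOZ gene body peaks were over 50% masked, and the remaining 2 of these were the highest gene body peaks of Itgb1 (14 fragments, 15.4 kb from the start) and Vcl.

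**Figure D4:**
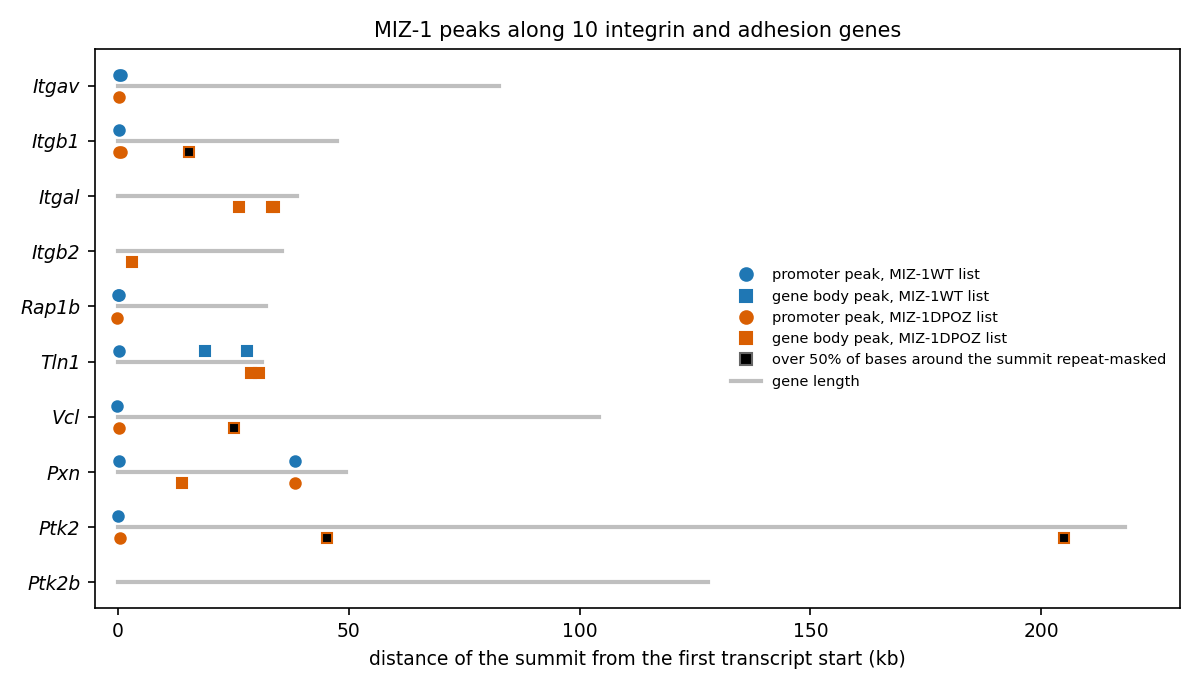
Position of every peak along the 10 genes, in kb from the first transcript start, with circles for promoter peaks, squares for gene body peaks, blue for MIZ-1WT, orange for MIZ-1DPOZ, a black fill where over 50% of the bases around the summit are repeat-masked and grey lines for gene length. Gene body peaks are mostly orange, and the 2 peaks within Ptk2 are both repeat-masked.

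The pathway beyond these genes was examined with a list of 58 further integrin and adhesion genes, all of which matched the annotation. Of these, 26 (44.8%) had a MIZ-1WT promoter peak and 40 (69.0%) a MIZ-1DPOZ promoter peak, against 30.9% and 48.7% of protein-coding genes. All 26 genes with a MIZ-1WT promoter peak also had a MIZ-1DPOZ one. A MIZ-1DPOZ promoter peak alone was found at 14 genes and none at 18, against 22.0% and 47.1% of protein-coding genes. Overlapping peaks were found at 23 genes (39.7%), against 23.6%. None of the 58 showed the pattern of Tln1, called at the promoter for MIZ-1WT alone, as 4.23% of protein-coding genes were. The 58 genes were chosen, so these counts were not tested against those shares. Of 22 other integrin subunits, 6 (27.3%) had a MIZ-1WT and 12 (54.5%) a MIZ-1DPOZ promoter peak, near the shares over protein-coding genes. The 10 with none were the leukocyte chains Itgam, Itgax, Itgad, Itgae, Itga4 and Itgb7, and also Itga2, Itga2b, Itga7 and Itga10. Of the 36 adaptor, kinase, Rap1 and ligand genes, 20 (55.6%) and 28 (77.8%) had one.

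Rap1a, the close relative of Rap1b, had the highest MIZ-1WT promoter peak of the 58 genes by −log10 q. Its summit had 18 fragments (10.2-fold) in MIZ-1WT and 9 (4.26-fold) in MIZ-1DPOZ, and the peaks overlapped with summits 237 bp apart. The depth-scaled ratio was 0.373, with an exact 95% interval of 0.148 to 0.874 that lies below 1 in these libraries. It was chosen as the largest of the list, so this interval is a description. Choosing Rap1a by its MIZ-1WT peak favours a lower MIZ-1DPOZ summit. At Rap1b the MIZ-1DPOZ summit was also the lower one, but its peaks did not overlap. The same held at Ptk2, with 15 and 9 fragments. Other genes of the 10 went the other way before scaling, with more MIZ-1DPOZ than MIZ-1WT fragments. These were Itgav (8 in MIZ-1WT and 20 in MIZ-1DPOZ), Itgb1 (7 and 17), Pxn at its second promoter (8 and 13) and Vcl (11 and 12). Scaled to the MIZ-1DPOZ depth, the 11 fragments at Vcl would equal 14.8. The next by MIZ-1WT −log10 q were Bcar1, which encodes the FAK substrate p130Cas (12 and 16 fragments, ratio 0.994), Lpxn, a paxillin relative of blood cells (11 and 16, ratio 1.09), and Itga9 (11 and 13, ratio 0.881). Their intervals all included 1.

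In the MIZ-1DPOZ list the highest promoter peak of the 58 genes was at Itga6, an alpha chain for laminin, with 21 fragments (9.10-fold) against 8 (4.84-fold) in MIZ-1WT. Its summits were 5 bp apart and the ratio was 1.96 (exact 95% interval 0.833 to 5.11), which includes 1. The genes of this paragraph were chosen by their MIZ-1DPOZ peaks, which favours high ratios, so the ratios are a description. Arhgef7, a partner of the paxillin-binding GIT proteins, had 19 fragments at its highest MIZ-1DPOZ peak and 8 at a MIZ-1WT peak elsewhere in its promoters, and these did not overlap. Fermt2, which encodes kindlin-2, a coactivator of integrins, had 19 and 10 fragments (ratio 1.42), and Tns3, which encodes a tensin that binds the beta tail, had 17 and 9 (ratio 1.41). The intervals of both ratios included 1.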

How the data were processed

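ChIP-seq for MIZ-1 and input sequencing were performed on B220+ splenocytes of 2 genotypes, with 1 ChIP library each. The study's methods name Trimmomatic, bwa and MACS2, while the submitters' processing notes name Bowtie2 2.2.6 and MACS2 2.1.0 on mm10, so the aligner is not certain. The authors called peaks separately for each genotype. For each peak the authors deposited the fold enrichment at the summit and the −log10 of the p-value and of the q-value. Under MACS2's formulas, fold enrichment is the fragments at the summit plus 1, divided by the local background plus 1. At these low counts it is well below the plain ratio of fragments to background. No q cutoff is given in the sources used here, and deposited −log10 q values started at 1.03 for MIZ-1WT and at 1.01 for MIZ-1DPOZ. Reads and input signal were not analysed here.

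Peaks were set against GENCODE basic starts of mm10 (55450 genes, 77258 distinct starts), from 2000 bp before to 1000 bp after each, and a peak could count for several genes. Starts within 1000 bp were 1 promoter, and distances are from its first start. Fragments at the summit and local background were solved from fold and p-value under MACS2's formulas (within 0.0001 for 99.92% and 99.94% of peaks), and the solver was checked on simulated scores. The depth ratio, 1.34, is that of the most frequent backgrounds (0.86 and 1.35) divided by the smallest peak widths (148 and 173 bp). Overlap meant 1 bp. Intervals are exact binomial for ratios and Wilson for shares. With 1 library per genotype no p-value was computed. Promoter sequences are RefSeq's for GRCm38 (mm10).

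The 10 genes and the 58 pathway genes were chosen with earlier results of these data known. All 10 genes were named with every promoter peak. Gene body peaks were named where highest in a gene, and of the pathway genes the 4 highest by −log10 q in a list. CpG quintiles, copy counts of 50 bases and the comparisons with the smallest summit called and with all overlapping pairs were added after the data were seen, as was the naming of the second intron peak of Ptk2 and of the pathway genes without peaks. Alternatives were stricter cutoffs, equal list lengths, repeats, other windows, nearest-start assignment, other overlaps and another depth scaling. Python 3.11.15, numpy 2.4.6, pandas 2.3.3, scipy 1.17.1 and pysam 0.24.0 were used.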

Additional observations from a re-analysis of the deposited data

How the results depend on the processing

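No paired analysis was possible because there was 1 ChIP library a genotype. The depth limits the lists, since most summits rest on few fragments. With a −log10 q of at least 5, genes of the 10 with a promoter peak fell from 7 to 4 in the MIZ-1WT list (Ptk2, Vcl, Tln1, Rap1b) and from 6 to 3 in the MIZ-1DPOZ list (Itgav, Itgb1, Vcl), and overlapping promoter peaks from 3 genes to 0. Peaks at the genes fell to 5 of 12 and 8 of 18, the overlapping shares to 0% in both lists, and the pathway genes with a MIZ-1WT promoter peak from 26 to 5. With a fold enrichment of at least 5, the MIZ-1DPOZ list kept 3 of 6 genes, overlaps fell to 0 genes and both shares to 0%, peaks were 6 (MIZ-1WT) and 8 (MIZ-1DPOZ), and pathway genes were 14 (MIZ-1WT) and 25 (MIZ-1DPOZ). With the MIZ-1DPOZ list cut to the length of the MIZ-1WT list, it held 3 of the 10 genes, 6 peaks and 23 pathway genes. The other 50 values, among them the depth-scaled ratios under the other scaling (Itgav 1.60, Itgb1 1.55, Pxn 1.04), stayed within 1.5 times of a count or inside the interval of a share or ratio. Pxn lost its MIZ-1DPOZ promoter peak with a window of 500 bp or with the summit inside the window, leaving 2 overlapping genes, and Itgav its overlap at 50% reciprocal overlap. Tln1 lost its peak to Creb3 under nearest-start assignment.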
